A study of Mus musculus with 6 samples.

Results

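The genes described here are 33 core effector genes of the type I interferon response, measured by RNA sequencing in Lin-CD117+ bone marrow cells. They were taken by gene symbol from a list of interferon-stimulated effectors that leaves out the OAS, PARP and Schlafen families and the transcription factors, and all 33 were found among the 24421 genes of the count table. CByB6F1 mice given ruxolitinib (RUX), an inhibitor of the Janus kinases JAK1 and JAK2, were compared with untreated CByB6F1 mice. All were labelled female and 2 to 5 months old. Lin-CD117+ cells lack the surface antigens of mature blood lineages and carry the receptor KIT, and this sorted fraction holds hematopoietic stem and progenitor cells. Each library came from cells of 2 to 3 mice of the same group combined into a pool, which gave 3 RUX pools (numbered 4 to 6) and 3 untreated pools (numbered 1 to 3). How much of the drug the mice received, and for how long, is not stated in the labels. Library totals were 46027491, 47730958 and 48747137 counted read pairs for RUX pools 4, 5 and 6, against 27354768, 38691826 and 37360937 for untreated pools 1, 2 and 3, so the RUX libraries were the deeper ones.

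Type I interferons, the interferon-alpha proteins and interferon-beta, are secreted antiviral cytokines that bind the receptor IFNAR1-IFNAR2. The kinases JAK1 and TYK2 on this receptor then act on the transcription factor complex ISGF3, of which STAT2 and IRF9 are parts, and ISGF3 binds interferon-stimulated response elements in the promoters of many genes. The products of these genes sense viral RNA, block translation, destroy nucleotides or RNA, or hold virus particles at the cell surface. In bone marrow, interferon also acts on hematopoietic stem cells, where Ly6a, which encodes the surface marker Sca-1, is among the genes it induces.

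The promoter sequences of 6 of these genes are shown because the response element is the feature that defines how such genes are switched on. RefSeq promoter sequences on GRCm38.p6 reach from 250 bases before to 50 bases after the annotated start, and 22 of the 33 genes matched an entry. Dhx58, Zbp1, Mx1, Mx2, Rtp4, Usp18, Ly6a, Ly6e, Ifi27l2a, Ifi27 and Tor3a had none. The motif searched was the core of the interferon-stimulated response element, GAAA and GAAA with any 2 bases (NN) between them, or TTTC and TTTC spaced the same way, which is the same motif on the opposite strand. They occurred in 11 of the 22 genes, or 50%, against 3.99% of all 27025 genes in the promoter table and 3.8% of the 10179 genes that were both in that table and tested here. Of the genes with the motif, the 4 with the smallest unadjusted p between RUX and untreated pools are printed first, and then the 2 without it. Each runs 5′ to 3′ on the gene's own strand, with the motif in capitals.
Rsad2, chr12:26456403-26456702, minus strand: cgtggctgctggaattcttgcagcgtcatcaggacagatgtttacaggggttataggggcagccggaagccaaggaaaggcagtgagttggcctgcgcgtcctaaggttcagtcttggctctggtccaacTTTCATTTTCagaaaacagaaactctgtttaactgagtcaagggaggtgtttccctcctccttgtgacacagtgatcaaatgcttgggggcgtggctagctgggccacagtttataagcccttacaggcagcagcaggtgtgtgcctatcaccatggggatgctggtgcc
Ddx58, chr4:40239776-40240075, minus strand: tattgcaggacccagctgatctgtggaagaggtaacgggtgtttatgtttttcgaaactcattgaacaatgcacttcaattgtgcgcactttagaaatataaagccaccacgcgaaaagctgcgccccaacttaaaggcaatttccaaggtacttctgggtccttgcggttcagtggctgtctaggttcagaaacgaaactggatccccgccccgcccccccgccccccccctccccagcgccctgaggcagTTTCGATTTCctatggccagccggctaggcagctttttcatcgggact
Ifit1, chr19:34640639-34640938, plus strand: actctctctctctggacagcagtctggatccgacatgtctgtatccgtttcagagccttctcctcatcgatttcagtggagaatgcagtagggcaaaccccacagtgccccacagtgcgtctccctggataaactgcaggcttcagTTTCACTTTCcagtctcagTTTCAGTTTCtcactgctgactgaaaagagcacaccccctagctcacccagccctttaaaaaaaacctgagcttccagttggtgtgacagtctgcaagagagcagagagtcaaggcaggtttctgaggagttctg
Isg15, chr4:156200769-156201068, minus strand: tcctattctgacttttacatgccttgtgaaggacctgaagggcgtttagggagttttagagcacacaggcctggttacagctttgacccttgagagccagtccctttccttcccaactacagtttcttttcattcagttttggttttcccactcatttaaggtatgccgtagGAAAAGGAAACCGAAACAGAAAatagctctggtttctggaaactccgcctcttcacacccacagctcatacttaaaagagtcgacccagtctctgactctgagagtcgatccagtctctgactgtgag
Ifi44, chr3:151749861-151750160, minus strand: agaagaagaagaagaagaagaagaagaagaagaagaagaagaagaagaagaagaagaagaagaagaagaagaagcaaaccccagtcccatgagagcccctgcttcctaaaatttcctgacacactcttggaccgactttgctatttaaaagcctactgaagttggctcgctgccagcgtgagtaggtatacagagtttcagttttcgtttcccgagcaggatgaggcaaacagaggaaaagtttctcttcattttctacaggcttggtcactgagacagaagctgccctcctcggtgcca
Ifit2, chr19:34550444-34550743, plus strand: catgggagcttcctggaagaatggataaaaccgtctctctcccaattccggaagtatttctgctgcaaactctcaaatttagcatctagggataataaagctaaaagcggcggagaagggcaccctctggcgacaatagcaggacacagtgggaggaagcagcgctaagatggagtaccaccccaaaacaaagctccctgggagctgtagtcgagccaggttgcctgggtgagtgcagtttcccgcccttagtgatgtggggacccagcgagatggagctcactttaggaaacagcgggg

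Counted from the annotated start, with bases before it negative, the motif began at −120 in Rsad2 and at 3 in Ddx58. Ifit1 held 2 copies, beginning at −104 and −85. Isg15 held 3 overlapping copies, the first beginning at −78 and the last at −66, which form 1 run of capitals. Ifi44 and Ifit2 held no match in these windows, and Ifit2 had no match in either of its 2 listed promoters. Among the tested effector genes with a listed promoter, 9 of 10 with the motif had a positive log2 fold change (RUX minus untreated), with a median of 0.18. Without the motif it was 7 of 11, with a median of 0.10. Genes without a listed promoter are in neither group. All of them but Mx1, at −0.21, were also positive, from 0.08 for Tor3a to 0.79 for Mx2. This split was not tested or set against the fold changes of other genes with the motif. A match describes these letters and was not tested as a binding site.

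Most of the interferon effector genes lay slightly higher in RUX pools, and none passed the test. A gene was tested if its counts passed edgeR's filterByExpr, as 32 of the 33 genes did, and levels are given as CPM, the count relative to the scaled library size. Positive log2 fold changes were found for 26 genes (81.2%) and negative ones for 6, namely Ifit2, Phf11d, Samd9l, Ifit1bl1, Mx1 and Sp100, whereas 49.2% of all 13411 tested genes were positive. The median log2 fold change of the 32 genes was 0.18, a fold of 1.14, and that of all tested genes was −0.004. Log2 fold changes above 0.2 were found for 15 of the 32 genes (46.9%), against 14.7% of all tested genes. The list was chosen with earlier results of these data known, so these shares are a description and the list as a whole was not tested.

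With edgeR's quasi-likelihood test and Benjamini-Hochberg adjustment over all tested genes, 0 of the 32 genes and 0 of 13411 genes (0%) passed an adjusted p of 0.05; the smallest adjusted p among the 32 genes was 1.00. At an unadjusted p under 0.05, edgeR gave 5 of the 32 genes, Rtp4, Rsad2, Ifi44, Ddx58 and Ifit1, all of them higher in RUX pools, against a background of 0.85% of all tested genes higher, 1.04% lower and 1.89% in either direction. DESeq2 and limma-voom also passed 0 genes after adjustment, and at an unadjusted p under 0.05 they gave 281 and 262 of all tested genes, or 2.1% and 1.95%. These included 5 and 4 of the effector genes, all higher in RUX pools. Without the low-count filter edgeR passed 14 genes of the table (0.073%), none of them an effector gene. The 3 RUX values lay above all 3 untreated values for Rsad2, Ifi44 and Mx2, which is 9.38% of the 32 genes against 2.99% of all tested genes. They lay below for Phf11d alone, against 3.25% of all tested genes. The 95% interval of the fold change stayed within a factor of 2 in both directions for 23 of the 32 genes, or 71.9%, against 80.9% of all tested genes. Its lower end was above a fold of 0.5 for 29 of the 32 genes, against 88.9% of all tested genes; the exceptions were Phf11d, Ifit1bl1 and Mx1, each under 1 CPM on average.

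**Figure D1:**
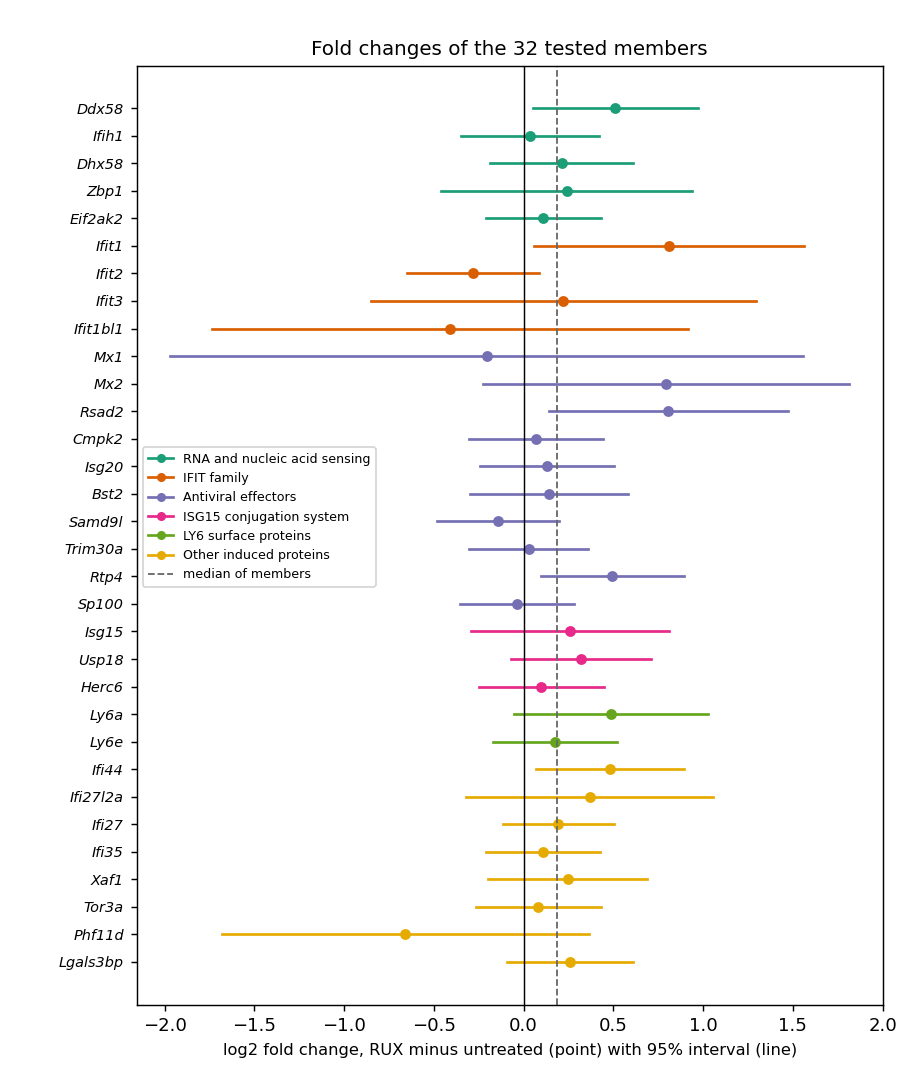
Log2 fold change (RUX minus untreated; points) with its 95% interval (lines) for the 32 tested genes, coloured by role; the dashed line is their median of 0.18. The points spread from −0.66 for Phf11d to 0.81 for Ifit1, and 5 intervals lie wholly above 0.

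The sensors of foreign RNA and related proteins all had positive fold changes, with a median of 0.21 on the log2 scale over 5 genes. Ddx58, which encodes the cytosolic RNA sensor RIG-I (mm10 chromosome 4, 40203777 to 40239825), had the largest of them and was chosen for per-pool values after its values were seen. It measured 20.9, 31.9 and 23.2 CPM in RUX pools 4, 5 and 6, against 18.3, 21.9 and 13.2 CPM in untreated pools 1, 2 and 3. RUX pool 5 was the highest and untreated pool 3 the lowest, and the groups overlapped because untreated pool 2 exceeded RUX pool 4. Its log2 fold change of 0.51 ± 0.21 (SE, n = 3 each; unadjusted p = 0.0323, edgeR adjusted p = 1.00) became 0.31 without RUX pool 5 (edgeR unadjusted p = 0.206). Dhx58, which encodes the related regulator LGP2, and Zbp1, a sensor of Z-form nucleic acids, had log2 fold changes of 0.21 and 0.24. The values were nearer 0 for Eif2ak2, the kinase PKR that halts translation on double-stranded RNA, at 0.11, and for Ifih1, the sensor MDA5, at 0.04.

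The IFIT genes, whose proteins bind viral RNA and limit its translation, did not share a direction. Ifit1 (chromosome 19, 34640889 to 34650009), also chosen after its values were seen, measured 5.44, 9.86 and 3.25 CPM in RUX pools 4, 5 and 6 and 4.25, 2.79 and 3.57 CPM in untreated pools 1, 2 and 3. RUX pool 5 stood far above the rest, while RUX pool 6 lay among the untreated values. The log2 fold change of 0.81 ± 0.35 (SE, n = 3 each; unadjusted p = 0.0363, edgeR adjusted p = 1.00) became 0.30 without RUX pool 5 and 1.12 without RUX pool 6. Its neighbour Ifit2 (34550694 to 34576534) measured 23.1, 20.8 and 25.3 CPM in RUX pools, against 32.5, 28.4 and 23.1 CPM in untreated pools. Untreated pools 1 and 2 lay above every RUX pool, and untreated pool 3 fell inside the RUX range. Ifit2 had the smallest p of the genes on the lower side, with a log2 fold change of −0.28 ± 0.17 (SE, n = 3 each; unadjusted p = 0.122, edgeR adjusted p = 1.00). The other members were scarce. Ifit3 averaged 0.81 ± 0.18 CPM in RUX pools and 0.68 ± 0.35 CPM in untreated pools (SD, n = 3 each), with a log2 fold change of 0.22, and Ifit1bl1 averaged 0.38 ± 0.24 CPM in RUX and 0.51 ± 0.19 CPM in untreated pools, with −0.41. Ifit3b, a near-identical copy of Ifit3, had counts of 3, 5 and 2 in RUX pools and 2, 3 and 1 in untreated pools, and was not tested. Read pairs that fit both copies could have been left out of the counts, so the levels of Ifit3 and Ifit3b are uncertain.

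Among 10 antiviral enzymes and restriction factors, 7 had positive and 3 negative fold changes, with a median of 0.10 on the log2 scale. Rtp4, an interferon-induced chaperone of membrane receptors (chromosome 16, 23609919 to 23614222), had the smallest p of the 32 genes. It measured 25.1, 22.5 and 16.6 CPM in RUX pools 4, 5 and 6, against 16.7, 14.4 and 14.5 CPM in untreated pools 1, 2 and 3. RUX pools 4 and 5 lay well above the untreated values, and RUX pool 6 was just under untreated pool 1. The log2 fold change was 0.50 ± 0.19 (SE, n = 3 each; unadjusted p = 0.0188, edgeR adjusted p = 1.00). Rsad2 encodes viperin, which turns the nucleotide CTP into a terminator of viral RNA synthesis (chromosome 12, 26442743 to 26456452). Rsad2 measured 4.73, 8.86 and 4.74 CPM in RUX pools, against 3.71, 4.38 and 2.39 CPM in untreated pools. All RUX pools were above all untreated pools, although RUX pools 4 and 6 were close to untreated pool 2. Its log2 fold change of 0.81 ± 0.31 (SE, n = 3 each; unadjusted p = 0.0214, edgeR adjusted p = 1.00) became 0.44 without RUX pool 5. Cmpk2, which lies beside Rsad2 on chromosome 12 (26469215 to 26479837) and encodes a mitochondrial nucleotide kinase, had a log2 fold change of 0.07 (95% interval −0.31 to 0.44).

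Mx1 and Mx2, the genes of dynamin-like antiviral GTPases on chromosome 16, are annotated by RefSeq as transcribed pseudogenes in the reference mouse genome. Mx2 measured 1.23, 0.76 and 0.73 CPM in RUX pools 4, 5 and 6, against 0.36, 0.59 and 0.60 CPM in untreated pools 1, 2 and 3. The groups did not overlap, but these are 37 to 53 read pairs in RUX pools and 10 to 23 in untreated pools. The log2 fold change was 0.79 ± 0.47 (SE, n = 3 each; unadjusted p = 0.118, edgeR adjusted p = 1.00). Mx1, chosen after its values were seen, had 49, 4 and 6 counts in RUX pools 4, 5 and 6 and 7, 25 and 22 counts in untreated pools 1, 2 and 3. RUX pool 4 alone was high within its group, so the highest RUX value was 13.8 times the lowest, against 2.56 times among untreated pools. Its log2 fold change was −0.21 ± 0.82 (SE, n = 3 each), which became −2.28 without RUX pool 4.

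The abundant antiviral genes Bst2 and Sp100 overlapped fully between groups. Bst2 encodes tetherin, which holds budding virus at the cell membrane (chromosome 8, 71534262 to 71537437). It measured 72.5, 47.9 and 40.6 CPM in RUX pools 4, 5 and 6, against 41.6, 48.0 and 56.2 CPM in untreated pools 1, 2 and 3. RUX pool 4 was the highest and RUX pool 6 the lowest, and the log2 fold change of 0.14 ± 0.20 (SE, n = 3 each) became −0.13 without RUX pool 4. Sp100, a component of nuclear PML bodies that restricts viral gene expression, measured 72.0, 82.5 and 66.0 CPM in RUX pools, against 83.3, 69.8 and 73.1 CPM in untreated pools. The highest value was in untreated pool 1 and the log2 fold change was −0.04 ± 0.15 (SE, n = 3 each). Samd9l, a growth and antiviral restriction factor in hematopoietic cells, measured 25.5, 32.4 and 31.6 CPM in RUX pools, against 31.9, 36.4 and 30.5 CPM in untreated pools. RUX pool 4 was the lowest of the 6 and the other pools mixed, with a log2 fold change of −0.14 ± 0.16 (SE, n = 3 each). Isg20, an RNA exonuclease, and Trim30a, of the TRIM family, had log2 fold changes of 0.13 and 0.03; the Trim30 genes are close copies of one another, so the Trim30a level is uncertain.

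The genes of the ISG15 system all had small positive fold changes, with a median of 0.26 on the log2 scale over 3 genes. Isg15 encodes the ubiquitin-like protein ISG15 (chromosome 4, 156199424 to 156200818) and was chosen after its values were seen. It measured 9.50, 8.41 and 5.10 CPM in RUX pools 4, 5 and 6, against 5.11, 6.58 and 7.47 CPM in untreated pools 1, 2 and 3. RUX pools 4 and 5 were the highest, and RUX pool 6 was level with untreated pool 1 at the low end. The log2 fold change of 0.26 ± 0.26 (SE, n = 3 each) became 0.084 without RUX pool 4 and 0.48 without RUX pool 6. Usp18, the protease that removes ISG15 and also binds IFNAR2 to dampen the signal, averaged 15.9 ± 1.49 CPM in RUX pools and 12.7 ± 1.91 CPM in untreated pools (SD, n = 3 each). Its log2 fold change was 0.32 ± 0.18 (SE; unadjusted p = 0.0996, edgeR adjusted p = 1.00), and untreated pool 2 lay just above RUX pool 6. Herc6, the main ligase that attaches ISG15 in mice, had a log2 fold change of 0.10.

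Both LY6 surface protein genes lay higher on average with overlapping groups. Ly6a (chromosome 15, 74994877 to 74998031), chosen after its values were seen, measured 10.2, 8.59 and 5.71 CPM in RUX pools 4, 5 and 6, against 5.71, 4.79 and 7.0 CPM in untreated pools 1, 2 and 3. RUX pools 4 and 5 were above every untreated pool, and RUX pool 6 was level with untreated pool 1. The log2 fold change of 0.49 ± 0.25 (SE, n = 3 each; unadjusted p = 0.0738, edgeR adjusted p = 1.00) became 0.30 without RUX pool 4 and 0.69 without RUX pool 6. Ly6e (74955051 to 74959905), whose protein affects the entry of several viruses, measured 1051, 943 and 887 CPM in RUX pools, against 731, 805 and 1017 CPM in untreated pools. Untreated pool 3 lay between RUX pools 4 and 5, and the log2 fold change was 0.17 ± 0.16 (SE, n = 3 each). The Ly6 genes form a family of related neighbours on chromosome 15, and how the counting split shared reads among them is uncertain.

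**Figure D2:**
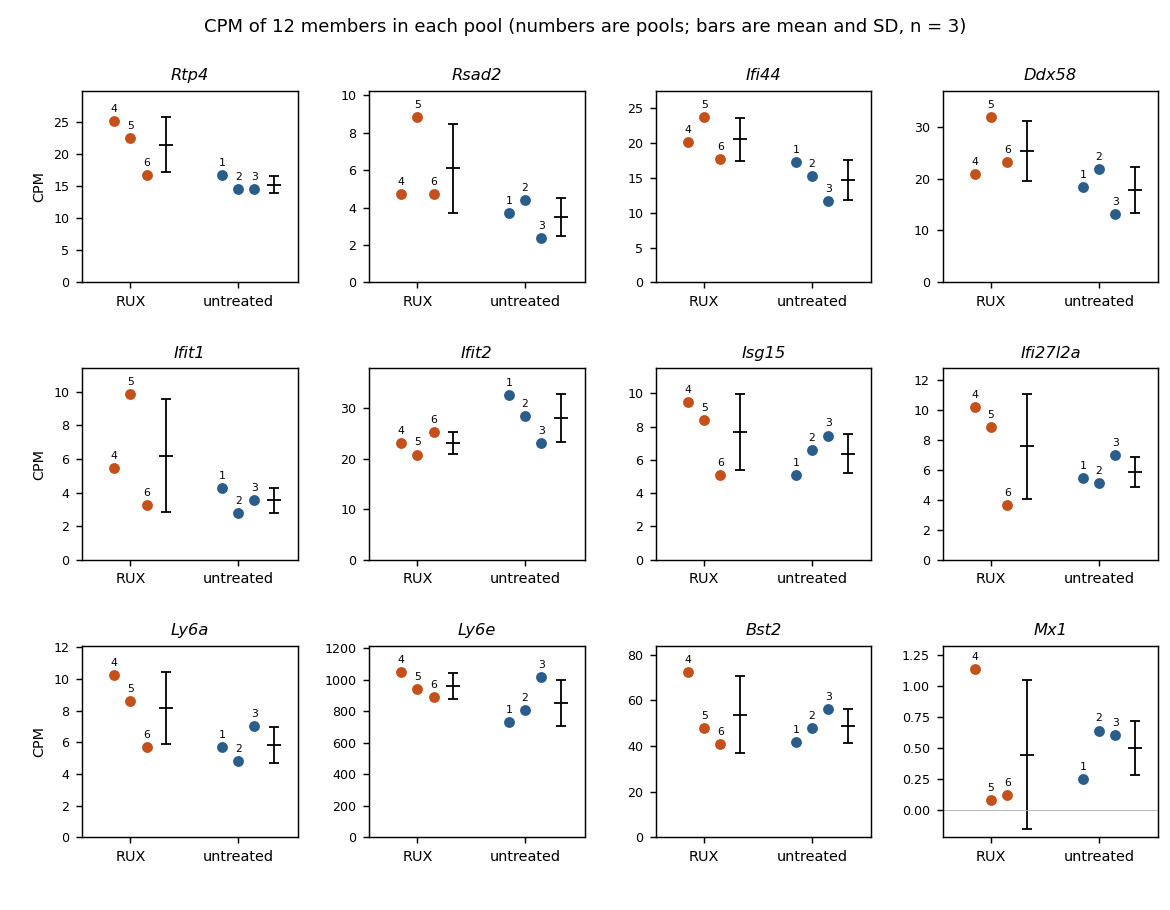
CPM of 12 genes in each pool (points, numbered by pool), with the mean and SD of each group (n = 3) beside them. Rsad2 and Ifi44 show no overlap between groups, RUX pool 5 stands apart for Ifit1, and RUX pool 4 stands apart for Bst2 and Mx1, where the SD bar of the RUX mean reaches below 0.

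The remaining 8 interferon-induced genes had 7 positive fold changes and 1 negative, with a median of 0.22 on the log2 scale. Ifi44, a cytoplasmic protein gene induced by interferon (chromosome 3, 151730923 to 151749959), measured 20.1, 23.8 and 17.7 CPM in RUX pools 4, 5 and 6, against 17.3, 15.2 and 11.6 CPM in untreated pools 1, 2 and 3. All RUX pools were above all untreated pools, with RUX pool 6 close to untreated pool 1. The log2 fold change was 0.48 ± 0.19 (SE, n = 3 each; unadjusted p = 0.0253, edgeR adjusted p = 1.00). Phf11d (chromosome 14, 59347407 to 59365490) was the opposite case, at 0.32, 0.53 and 0.52 CPM in RUX pools, against 0.61, 0.77 and 0.80 CPM in untreated pools. Every RUX pool was below every untreated pool, on 14 to 26 read pairs in RUX pools and 17 to 30 in untreated pools. Its log2 fold change was −0.66 ± 0.47 (SE, n = 3 each; unadjusted p = 0.188, edgeR adjusted p = 1.00), and the Phf11 genes are close copies, which leaves its level uncertain.

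Lgals3bp, which encodes a secreted glycoprotein that binds galectins (chromosome 11, 118392752 to 118401931), measured 108, 136 and 159 CPM in RUX pools 4, 5 and 6, against 115, 122 and 99.7 CPM in untreated pools 1, 2 and 3. RUX pools 5 and 6 were above the untreated pools and RUX pool 4 was among them, with a log2 fold change of 0.26 ± 0.16 (SE, n = 3 each). Ifi27, which encodes an interferon-induced mitochondrial protein (chromosome 12, 103434189 to 103440245), measured 84.6, 83.0 and 68.9 CPM in RUX pools, against 65.8, 66.1 and 74.9 CPM in untreated pools. The highest 2 values were in RUX pools 4 and 5, and the log2 fold change was 0.19 ± 0.14 (SE, n = 3 each). Ifi27l2a, chosen after its values were seen, measured 10.2, 8.88 and 3.63 CPM in RUX pools, against 5.46, 5.15 and 6.98 CPM in untreated pools. RUX pools held both its highest and its lowest values, and the log2 fold change of 0.37 ± 0.32 (SE, n = 3 each) became 0.098 without RUX pool 4 and 0.70 without RUX pool 6. Exons of Ifi27 and Ifi27l2a overlap on opposite strands and the counting used no strand, so reads there cannot be told apart. Xaf1, a pro-apoptotic protein gene, Ifi35 and Tor3a, a gene of the torsin ATPase family, had log2 fold changes of 0.25, 0.11 and 0.08.

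Compared per kilobase of exon, the genes spanned levels from 394 CPM per kilobase for Ly6e down to 0.032 for Ifit3b, averaged over the 6 pools. Ly6e stood alone at the top, and its lowest pool, at 318 CPM per kilobase, was above the highest pool of Ifi27, the next gene, at 80.4. Ifi27, Bst2 and Lgals3bp followed at 70.2, 66.8 and 56.9 CPM per kilobase, with overlapping ranges over the pools. Sp100, Ifi35 and Isg20 formed the next overlapping stretch at 34.5, 34.1 and 33.6, and from Cmpk2 at 12.5 down to Zbp1 at 1.02 each gene's range overlapped that of the next. Ifit3, Mx2, Phf11d, Ifit1bl1, Mx1 and Ifit3b were the lowest, at 0.37 or less. Neighbours in this order were separated by a gap over the 6 pools in 4 of 32 steps. Ly6e alone made up 49.0 to 57.7% of the summed CPM of the 33 genes. That sum was 1877, 1818 and 1701 CPM in RUX pools 4, 5 and 6 and 1493, 1568 and 1762 CPM in untreated pools 1, 2 and 3, so the groups overlapped. Without Ly6e the sum was 826, 875 and 814 CPM in RUX pools and 762, 763 and 745 CPM in untreated pools, and the groups did not overlap. Abundant genes still weigh most in this sum. In RUX pool 6, Lgals3bp alone gave 159 CPM, against 115, 122 and 99.7 CPM in untreated pools 1, 2 and 3. The sums were not tested or set against sums of other genes.

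**Figure D3:**
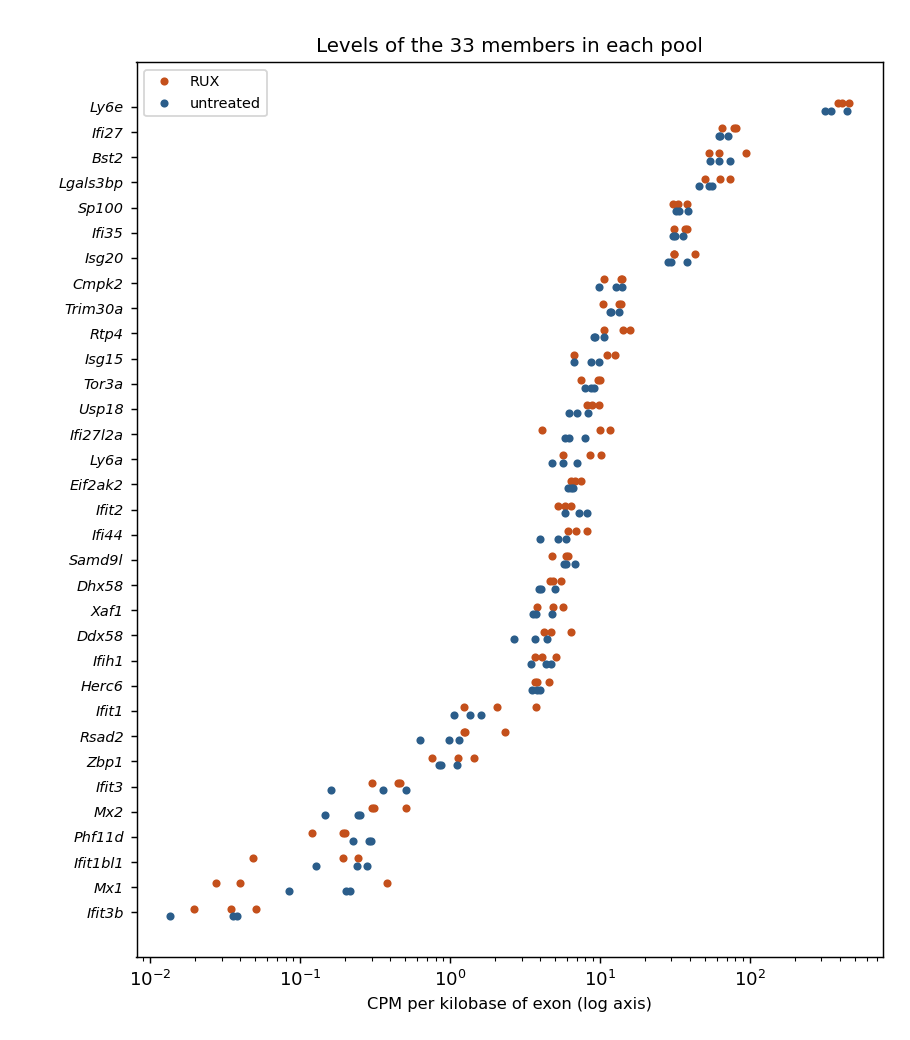
Level of the 33 genes in each pool as CPM per kilobase of exon (log axis), in falling order of the mean over 6 pools. Ly6e is separated from the rest at 394 CPM per kilobase on average, and 6 genes from Ifit3 down lie at 0.37 or less.

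Gene by gene, the lean toward higher values was found in RUX pools 4 and 5 and not in RUX pool 6. Set against the mean of the 3 untreated pools, 21 of the 32 genes were higher in RUX pool 4, 24 in RUX pool 5 and 15 in RUX pool 6, with median ratios of 1.17, 1.19 and 0.99. Over all tested genes 47.3%, 46.4% and 47.2% were above that mean in RUX pools 4, 5 and 6. The median ratios of all tested genes were 0.985, 0.988 and 0.986. Mean deviations of the 32 genes from their 6-pool means, on the log2(CPM + 1) scale, were 0.11, 0.18 and −0.05 in RUX pools 4, 5 and 6 and −0.10, −0.06 and −0.08 in untreated pools 1, 2 and 3. By this mean RUX pool 6 was close to the untreated pools and slightly above all 3 of them. The sum without Ly6e also placed it above them. A RUX pool held the highest value for 26 of the 32 genes (81.2%), against 46.2% of all tested genes. RUX pool 4 was highest for 11 genes, RUX pool 5 for 10 and RUX pool 6 for 5, while each untreated pool was highest for 2. When RUX pool 6 was left out, 15 of the 32 genes lay wholly above the untreated pools and 2 wholly below, where the shares of all tested genes were 7.57% and 7.61%. Leaving out the lowest RUX pool favours such a count. Without RUX pool 4 there were 6 above and 2 below, against 16.2% of all tested genes in either direction. Without RUX pool 5 there were 4 above and 1 below, against 11.1%.

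**Figure D4:**
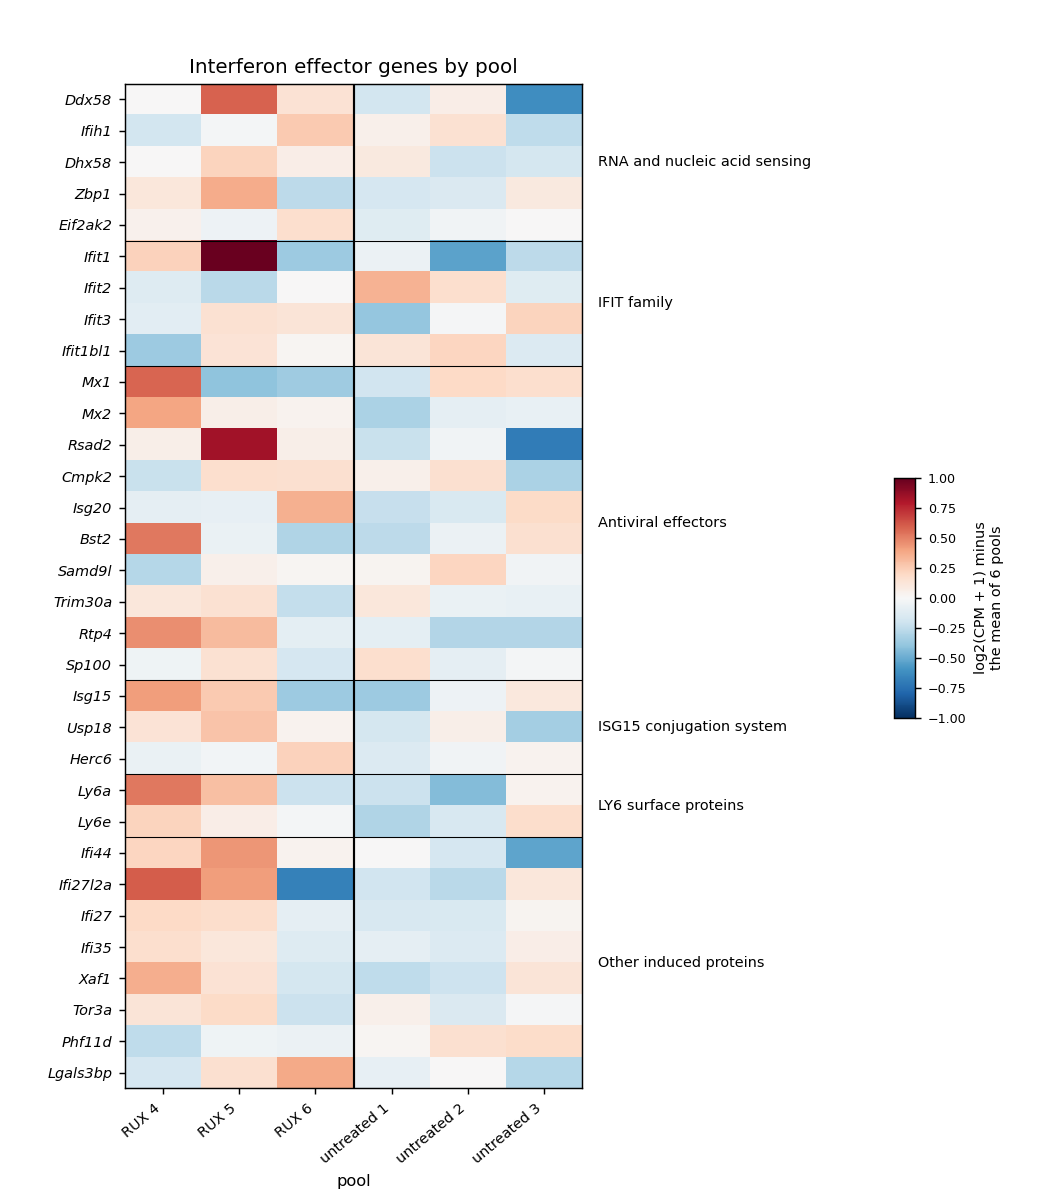
Deviation of each of the 32 genes in each pool from its mean over 6 pools, as log2(CPM + 1), with genes grouped by role and red for higher values. Values above a gene's own mean fill 21, 24 and 16 of the 32 cells in RUX pools 4, 5 and 6, against 11, 10 and 15 in untreated pools 1, 2 and 3.

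The genes hardly varied together as one block over the 6 pools. Over the 496 pairs of the 32 genes, the median Pearson r was 0.11 and 59.1% of pairs were positive, where the median over all pairs of tested genes was 0.00 with 49.9% positive. After the group means were taken out, the median over the 32 genes was 0.05 with 51.6% positive. These values describe 6 pools, in which all genes share the same libraries. Some of the genes shared an order of pools, and others followed neither of the orders given next. In 9 of the 32 genes (28.1%), namely Mx2, Bst2, Isg15, Ly6a, Ly6e, Ifi27l2a, Ifi27, Ifi35 and Xaf1, RUX pool 4 was the highest RUX pool and untreated pool 3 the highest untreated pool, against 20.4% of all tested genes. In 8 other genes (25.0%), namely Ddx58, Ifit1bl1, Rsad2, Cmpk2, Samd9l, Trim30a, Usp18 and Ifi44, RUX pool 5 was the highest RUX pool and untreated pool 3 the lowest untreated pool, against 11.5% of all tested genes. Both orders were noticed in the data and then counted, and the share of the first was near that of all tested genes. They describe these pools and were not tested.

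Markers of other cells also differed between pools. Kit, which encodes the receptor used in the sort, measured 295, 412 and 416 CPM in RUX pools 4, 5 and 6, against 409, 471 and 196 CPM in untreated pools 1, 2 and 3, so that RUX pool 4 and untreated pool 3 were the lowest of their groups. The 8 eosinophil markers summed to 242, 104 and 60.0 CPM in RUX pools and 59.5, 50.5 and 249.5 CPM in untreated pools, with 6 positive and 2 negative fold changes. Most of this sum was Prg2, at 207, 80.7 and 41.3 CPM in RUX pools 4, 5 and 6, against 40.1, 35.7 and 214 CPM in untreated pools 1, 2 and 3. RUX pool 4 and untreated pool 3 were thus the highest of their own groups for eosinophil markers, as for the 9 genes named above. The neutrophil, monocyte and dendritic cell, and T and NK cell lists showed the same order, by sum and by mean deviation. The 9 genes were picked by this order, which 20.4% of all tested genes shared. A link to any of these cell types was not tested. The 12 neutrophil markers, 3 positive and 9 negative, summed to 8064 to 11409 CPM in RUX pools and 6667 to 15015 CPM in untreated pools, and their mean deviations were 0.60, 0.12 and −0.99 in RUX pools 4, 5 and 6 and −1.73, 0.74 and 1.26 in untreated pools 1, 2 and 3. Most of the neutrophil sum was Mpo, at 5487, 3630 and 9240 CPM in untreated pools 1, 2 and 3. S100a8 ran otherwise, at 54.5, 609 and 739 CPM, so sum and mean deviation ranked the untreated pools differently. No eosinophil or neutrophil marker was at 0 in all pools. Markers of B lymphoid cells, 1 positive and 10 negative of 11, summed to 681 to 924 CPM in RUX pools and 894 to 990 CPM in untreated pools, and those of T and NK cells to 245 to 447 CPM in RUX and 225 to 402 CPM in untreated pools. Erythroid markers, 6 positive and 3 negative of 9 tested, summed to 5314, 5830 and 7673 CPM in RUX pools 4, 5 and 6 and 5695, 6518 and 5670 CPM in untreated pools 1, 2 and 3, and were highest in RUX pool 6; Hba-a1 and Hbb-bt were at 0 in every pool. Monocyte and dendritic cell markers, 3 positive and 9 negative of 12, summed to 1758, 1646 and 1243 CPM in RUX pools and 1735, 1409 and 2429 CPM in untreated pools, and were lowest in RUX pool 6. Macrophage markers, 1 positive and 4 negative of 5 tested, summed to 25.6 to 29.5 CPM in RUX pools and 25.2 to 32.3 CPM in untreated pools.

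Stem and progenitor markers, 9 positive and 1 negative of 10, summed to 1334 to 1543 CPM in RUX pools and 958 to 1525 CPM in untreated pools, and untreated pool 3 had the lowest mean deviation at −0.57. Plasmacytoid dendritic cells are strong producers of type I interferon and carry BST2. Of their 10 markers, which include Bst2 itself, 9 were tested, with 4 positive and 5 negative fold changes, and their sum was 195 to 294 CPM in RUX pools and 232 to 250 CPM in untreated pools. Siglech, a defining marker of these cells, measured 1.32, 0.92 and 0.54 CPM in RUX pools 4, 5 and 6, against 1.5, 1.43 and 1.59 CPM in untreated pools 1, 2 and 3, and Klk1 was at 0 in 5 of the 6 pools. Siglech was the only 1 of the 9 without overlap, on 27 to 57 read pairs in RUX and 42 to 58 in untreated pools (edgeR unadjusted p = 0.106). The positive log2 fold changes were 0.67 for Pacsin1, 0.14 for Bst2, 0.09 for Tcf4 and 0.05 for Runx2. The part of these cells in the values of the interferon genes was not tested, and in bulk RNA fewer cells of a type and less RNA per cell cannot be told apart. Without untreated pool 3 and RUX pool 4, an alternative chosen after seeing the data, the median log2 fold change of the 32 genes was 0.21, with 24 positive, and 13 genes lay wholly above the untreated pools and 3 wholly below, against 16.5% and 15.9% of all tested genes.

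**Figure D5:**
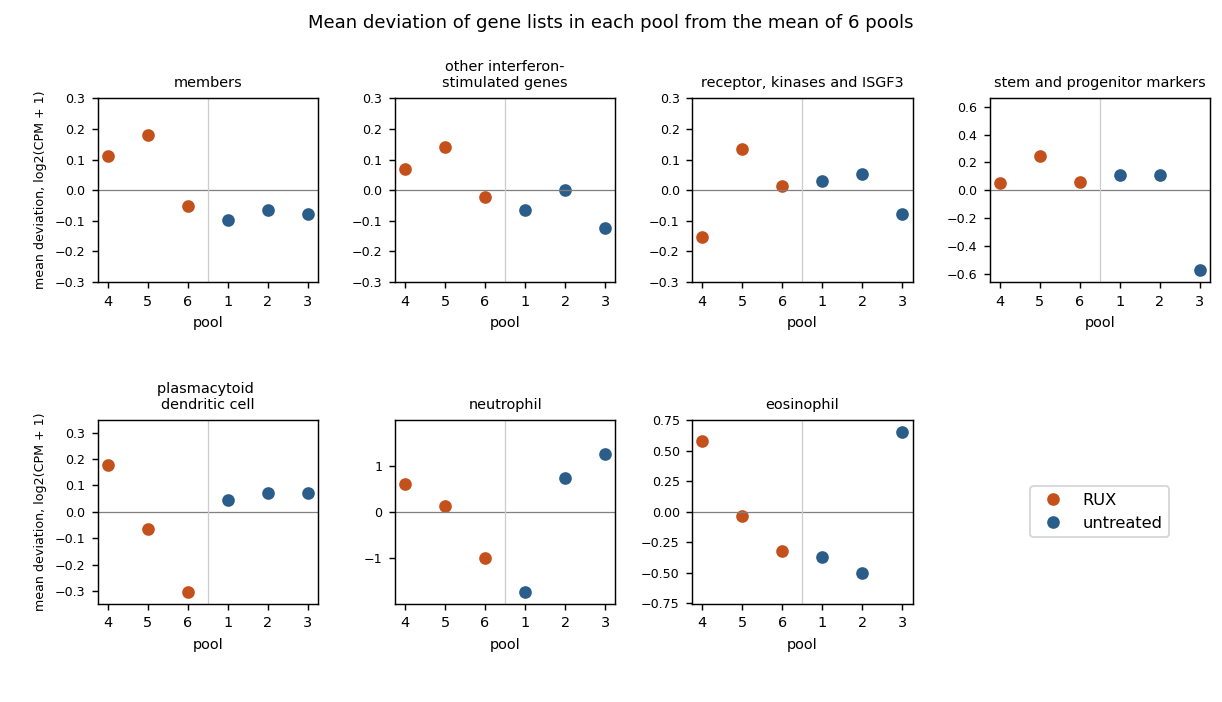
Mean deviation of gene lists in each pool from the mean of 6 pools, on the log2(CPM + 1) scale, for the interferon effector genes (members), 2 pathway lists and 4 marker lists; vertical scales differ between panels. The effector genes are highest in RUX pools 4 and 5 at 0.11 and 0.18, while eosinophil markers are highest in RUX pool 4 and untreated pool 3 at 0.58 and 0.66. Neutrophil markers are also the highest of each group in these pools, at 0.60 and 1.26.

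The genes that carry the interferon signal differed little between the groups. The 18 type I interferon genes were close to silent, with 12 at 0 in every pool, none tested, and a summed level of 0.040 to 0.10 CPM in RUX pools and 0.036 to 0.19 CPM in untreated pools. A count of 0 allows a level of up to 0.0595 to 0.107 CPM, depending on the pool (3 counts of the library). The 6 genes described of the receptor, its kinases and ISGF3 were split 3 positive to 3 negative, their median log2 fold change was 0.0008, and all 6 intervals stayed within a factor of 2. Ifnar1 and Ifnar2, the receptor chains, were at −0.09 and 0.03. Jak1 and Tyk2, the kinases bound to them, were at 0.01 and −0.04, and Stat2 was at −0.01. Irf9, the DNA-binding part of ISGF3, measured 51.6, 56.3 and 51.5 CPM in RUX pools 4, 5 and 6, against 48.8, 51.0 and 47.6 CPM in untreated pools 1, 2 and 3. All RUX values of Irf9 were above all untreated values, by a log2 fold change of 0.11 ± 0.14 (SE, n = 3 each; unadjusted p = 0.42, edgeR adjusted p = 1.00).

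The 14 genes of the routes that induce interferon included 10 on the positive side and 4 on the negative side, their median log2 fold change was 0.07, and 0 reached an unadjusted p under 0.05. Irf7, the factor that amplifies interferon-alpha transcription and is itself interferon-induced, measured 9.64, 13.1 and 11.8 CPM in RUX pools 4, 5 and 6, against 8.93, 7.42 and 10.4 CPM in untreated pools 1, 2 and 3. RUX pool 4 lay below untreated pool 3, and the log2 fold change was 0.37 ± 0.20 (SE, n = 3 each; unadjusted p = 0.0923, edgeR adjusted p = 1.00). Trim25, the ubiquitin ligase that acts on RIG-I, was without overlap between groups at 0.27, and the RNA receptor gene Tlr7 was at 0.40 with overlap.

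Interferon-stimulated genes outside the effector list, from the OAS, PARP, Schlafen, GBP and other families, leaned the same way. Of 38 tested, 26 were positive and 12 negative, their median log2 fold change was 0.09, and 0 passed the edgeR adjusted p of 0.05. The positive share was 68.4%, against 49.2% of all tested genes. At an unadjusted p under 0.05 there were 4 higher (10.5%) and 0 lower, against 0.85% and 1.04% of all tested genes. Wholly above the untreated pools were 7 (18.4%) and wholly below 0, against 2.99% and 3.25% of all tested genes. Oasl2 measured 11.2, 15.9 and 11.4 CPM in RUX pools 4, 5 and 6, against 7.46, 9.06 and 7.06 CPM in untreated pools 1, 2 and 3. RUX pool 5 was the highest, as for Ddx58, Rsad2 and Ifi44, and no values overlapped. Parp14 and Oas3 were also without overlap, at log2 fold changes of 0.59 and 0.69. The mean deviations of the 38 genes were 0.07, 0.14 and −0.02 in RUX pools and −0.06, −0.0008 and −0.13 in untreated pools, and RUX pool 6 was again the lowest of the RUX pools.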

How the data were processed

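Libraries were made with the Takara SMART-Seq mRNA LP kit, per the labels' protocols. The submitters' processing notes name STAR and the mm10 build. The deposited table holds raw read-pair counts per gene over exons, made with featureCounts 2.0.3 without a strand option, per the file headers; the summed exon length of each gene is also a deposited value. Columns were matched to pools by the library names in the labels.

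The counts were analysed in R 4.3.3 with edgeR 4.0.16, which kept 13411 genes (filterByExpr), scaled libraries by TMM and tested RUX against untreated with the two-sided quasi-likelihood test, adjusted by Benjamini-Hochberg over all tested genes at 0.05. Standard errors come from the log2 fold change and F, and intervals are at 95%. CPM refers to the TMM-scaled library. The fit was tested on simulated data. Alternatives were DESeq2 1.42.0, limma-voom 3.58.1, other scalings and filters, and pools left out. Pools came from different mice, and p-values reflect the spread between these pools; reads carry no stated molecular identifiers, so floors of 3 counts cover counting error only. The genes and lists were chosen with earlier results of these data known. Per-pool values of effector genes were given by rule. It took genes without overlap between groups, the 5 highest per kilobase and the 3 smallest p in each direction. Other effector genes are named as chosen later. The markers Prg2, Mpo, S100a8 and Siglech were picked from their lists outside this rule. 1 gene of the signalling list is not reported here.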

Additional observations from a re-analysis of the deposited data

How the results depend on the processing

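No alternative passed any of the effector genes; the smallest edgeR, DESeq2 or limma adjusted p over them was 0.858. Their median log2 fold change stayed positive under each alternative, from 0.11 to 0.24 when 1 pool was left out (lowest without untreated pool 1, highest without untreated pool 3), and 23 to 27 genes were positive. Without a low-count filter 14 genes of the table passed, none of them an effector gene. The count of effector genes without overlap was 4 of 32 in all pools, against 6.24% of all tested genes. With a filter of at least 1 CPM in 3 pools it was 2 of the 27 effector genes kept, against 5.9%. When 1 pool was left out the count was 5 to 17. It was 17 without RUX pool 6 (15.2% of all tested genes), 10 without untreated pool 3 (19.5%) and 8 without RUX pool 4 (16.2%). It was 7 without untreated pool 2 (20.8%), 6 without untreated pool 1 (11.7%) and 5 without RUX pool 5 (11.1%). Without both untreated pool 3 and RUX pool 4 it was 16, against 32.4% of all tested genes. Of 443 log2 fold changes, 425 kept their direction and 18 reversed, and 22 of 32 genes never reversed. With 1 pool left out the ranges of those that reversed were −0.13 to 0.31 for Bst2, −0.063 to 0.19 for Cmpk2, −0.0052 to 0.16 for Herc6, −0.10 to 0.14 for Ifih1, −0.81 to 0.012 for Ifit1bl1, −0.10 to 0.61 for Ifit3, −0.036 to 0.27 for Isg20, −2.28 to 0.30 for Mx1, −0.13 to 0.041 for Sp100 and −0.046 to 0.14 for Trim30a. Without untreated pool 3 and RUX pool 4, Bst2 was −0.0145 and Trim30a −0.051. The cause was not tested. The 95% intervals reached beyond a factor of 2 for Mx1, Mx2, Ifit3, Ifit1bl1, Phf11d, Ifit1, Rsad2, Ifi27l2a and Ly6a. No paired analysis was possible because pool numbers are not shared between groups.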
